A study of Mus musculus with 6 samples.

Results

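Hox genes and the TALE homeobox genes that encode their DNA-binding partners were examined in Pdgfra-reporter cells of the neonatal mouse lung. Members were taken by a rule on gene names, chosen with earlier results of these data known. The rule took every numbered gene of the HoxA, HoxB, HoxC and HoxD clusters, and every numbered Meis, Pbx and Pknox gene. That gave 48 of the 48397 symbols in the files, 39 of them Hox genes and 9 TALE genes. The tested group was 3 libraries from PdgfraEGFP/+ pups whose dams had been injected with 5E1, an antibody that binds hedgehog ligands. It was set against 3 libraries from PdgfraEGFP/+ pups whose dams had received control IgG. In both groups the injection was intraperitoneal at E18.5 and lungs were taken at postnatal day 8. Live EGFP-positive cells were sorted, so all 6 libraries carry 1 reporter allele of Pdgfra and hold only cells that passed that sort. The labels do not say whether a library is 1 pup or a pool, so the p-values reflect the variation among these libraries alone, part of which may be technical. The series title asks how hedgehog signalling bears on septum formation mediated by PDGF.

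Hox genes encode homeodomain transcription factors that sit in 4 clusters and mark position along the body axis. Genes of the same number in different clusters are paralogs, low numbers lie at the 3′ end of a cluster, and they are switched on earlier and nearer the head than high numbers. Hox proteins bind DNA together with TALE homeodomain proteins: PBX proteins are direct partners, and MEIS and PKNOX proteins bind PBX and modify its activity. In the lung, Hox expression lies mainly in the mesenchyme. Mice without Hoxa5 have malformed airways and defective alveoli, and Hoxb5 shares part of that role.

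Gene reads numbered 18857199 to 34318583 per 5E1 library and 16958433 to 28405457 per IgG library. Hedgehog targets were lower in 5E1 in all libraries: Ptch1, the pathway's receptor and target, averaged 90.1 ± 10.4 CPM (reads scaled to library size) in 5E1 and 411 ± 4.92 CPM in IgG (SD, n = 3 each). Hhip (-2.37) and Gli1 (-1.12 on the log2 scale) also fell. All 10 listed lung mesenchyme markers were detected and tested in the sorted cells. Their sums were 57271 to 102947 CPM in 5E1 and 45317 to 63446 CPM in IgG, which overlapped, with 2 higher, 1 lower and a median of 0.44 on the log2 scale. Markers of other cells moved between the groups. Summed leukocyte markers were 255 to 411 CPM in 5E1 and 114 to 130 CPM in IgG, with 6 of 9 tested higher and none lower. Summed cycling-cell markers were 103 to 220 CPM in 5E1 and 417 to 452 CPM in IgG, with 5 of 6 lower. Smooth muscle and pericyte markers summed to 1760 to 2607 CPM in 5E1 and 3265 to 3518 CPM in IgG (1 of 8 higher, 3 lower). Their median was -0.031 on the log2 scale, with 4 above 0 and 4 below, so the lower sum does not stand for each marker. Mesothelial markers summed to 127 to 248 CPM in 5E1 and 47.4 to 88.6 CPM in IgG (2 of 6 higher). Neural and glial markers summed to 10.01 to 15.8 CPM in 5E1 and 21.7 to 33.6 CPM in IgG, and 1 of 3 tested was lower. Epithelial sums (471 to 1441 CPM in 5E1, 421 to 676 CPM in IgG, 2 of 9 higher) and endothelial sums (137 to 273 CPM in 5E1, 128 to 152 CPM in IgG, 1 of 8 higher and 1 lower) overlapped. The part of these shifts in the results below was not tested. Beside these marker counts, 12.1% of all genes tested were called higher and 11.1% lower. In bulk RNA, fewer cells of a type and less RNA per cell cannot be told apart. One library of each group, 5E1 replicate 1 and IgG replicate 3, had 2 reads in all over 4 Y-linked genes. The others had 3592 to 6913 such reads and also held Xist at 175 to 460 CPM.

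The Hox code of the IgG cells was made almost wholly of low-numbered genes of HoxA and HoxB. To compare genes, reads were divided by exon length and scaled to TPM, a per-length share of each library. HoxB genes summed to 340 ± 15.1 TPM and HoxA genes to 227 ± 36.4 TPM in IgG (SD, n = 3), against 1.21 ± 0.491 TPM for HoxC and 0.423 ± 0.140 TPM for HoxD. HoxB thus supplied 55.7% to 63.0% of the summed Hox TPM in the IgG libraries and HoxC with HoxD 0.206% to 0.415%. Of the 39 Hox genes, 15 passed the filter on low counts: 7 of HoxA, Hoxb2 to Hoxb8, and Hoxc4.

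The 24 Hox genes that did not pass were low in both groups. No read was counted for 9 of them in any of the 6 libraries, which over 154655495 gene reads allows a level of up to 0.0194 CPM per gene (3 reads, counting error only). At most 3 reads in any library were counted for 15 of the 24, these 9 included, and the highest count of any of the 24 in a library was 11, of Hoxd8 in 5E1 replicate 2. All 16 genes of paralog groups 9 to 13, which pattern trunk, limb and urogenital tissue, were among the 24. Together they had 51 reads over the 6 libraries, 0.0565% to 0.155% of summed Hox TPM in 5E1 and 0 to 0.142% in IgG. Hoxb1, the most 3′ gene of its cluster, had at most 4 reads in a library, although its neighbour Hoxb2 had 369 to 786.

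Paralog group 5 dominated the code. Hoxa5 and Hoxb5 together made up 45.0% to 50.1% of summed Hox TPM in 5E1 and 41.8% to 44.0% in IgG. Group 4 followed with 15.4% to 17.0% in 5E1 and 18.1% to 19.3% in IgG. Groups 2 and 6 each held about as much as the other in IgG, 10.7% to 11.5% and 11.9% to 12.2%, and group 3 held 7.60% to 8.29%. Groups 7 and 8 were each at most 4.82% in every IgG library. Group 5 was thus the peak, but on its 3′ side group 2 stood above group 3 with these lengths. With the length of the longest transcript the order of groups 2 and 3 turned. Hoxa3 (24.45 TPM in IgG) was then above Hoxa2 (20.8 TPM), and Hoxb3 (31.5 TPM) above Hoxb2 (29.45 TPM).

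In IgG, Hoxa5 had the highest mean TPM of the Hox genes at 130 ± 23.7 TPM, with libraries from 116 to 157.5 TPM. Hoxb5 followed at 112 ± 5.96 TPM, with libraries from 106 to 118 TPM. The ranges of these paralogs overlapped, so their order was not resolved. Hoxb4 was next at 85.1 ± 2.98 TPM, below every Hoxb5 library. Hoxb6 (51.3 ± 1.78 TPM), Hoxb2 (35.05 ± 1.12 TPM), Hoxb3 (31.3 ± 2.19 TPM) and Hoxa2 (27.6 ± 2.90 TPM) came after it. Hoxb6 lay above every library of Hoxb2, and Hoxb3 and Hoxa2 overlapped. Hoxb2 lay above every library of Hoxb3 with these lengths, but with longest transcripts the order turned, at 29.45 ± 0.949 TPM for Hoxb2 and 31.5 ± 2.21 TPM for Hoxb3. Hoxa4, Hoxa6, Hoxb7, Hoxa3 and Hoxa7 lay between 11.7 and 20.3 TPM and each overlapped the next. Hoxb8 followed at 9.69 ± 1.61 TPM. Hoxc4 was the only HoxC gene tested, at 0.833 ± 0.0440 TPM. Of the tested Hox genes, the length choice moved Hoxa3 most, whose annotated exons span 6014 bases but whose longest transcript has 2591. With the longest transcript it read 24.45 ± 3.47 TPM in IgG against 13.95 ± 1.98 TPM with all exons.

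All 9 TALE genes passed the filter, and 8 of them averaged at least 1 CPM. Of the PBX genes, which encode the direct partners of Hox proteins, Pbx2 measured 74.7 ± 4.99 TPM in IgG. Pbx3 was lower at 22.9 ± 2.92 TPM, and Pbx4, known for its role in the male germ line, stood at 1.46 ± 0.790 TPM. Among MEIS genes Meis1 (56.65 ± 1.54 TPM) was above Meis3 (45.2 ± 2.74 TPM), and Meis2 was far lower at 8.37 ± 0.948 TPM. Pknox1 measured 31.4 ± 2.70 TPM and Pknox2 16.0 ± 2.75 TPM. With longest transcripts Pknox2 read 34.3 ± 5.93 TPM, Meis2 13.8 ± 1.59 TPM and Pbx3 36.9 ± 4.72 TPM in IgG, each over 1.5 times its value with all exons. By that length Pknox1 read 38.6 ± 3.34 TPM in IgG, and Meis1 (59.6 ± 1.63 TPM) and Meis3 (56.3 ± 3.45 TPM) lay closer together. TALE genes summed to 358 to 371 TPM in 5E1 and 364 to 385 TPM in IgG, ranges that overlapped.

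**Figure D1:**
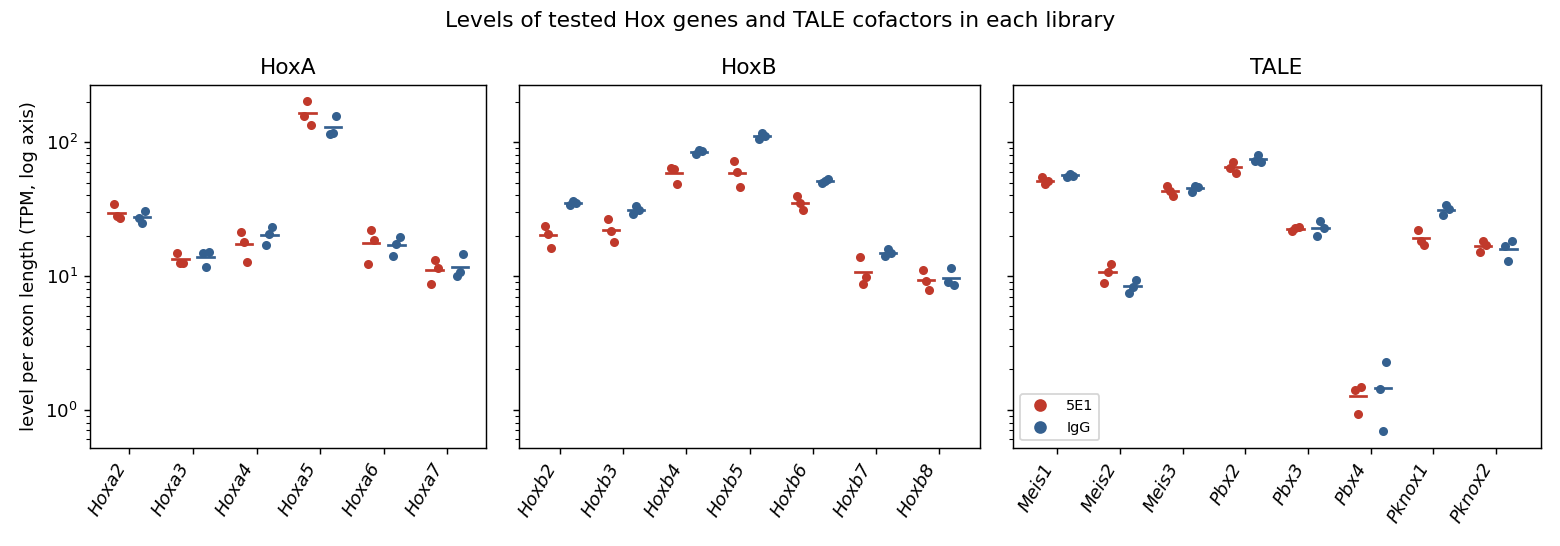
Levels of tested HoxA, HoxB and TALE genes, as TPM on a log axis, with 1 point per library (5E1 left, IgG right, n = 3 each) and a line at each group mean. The profile peaks at Hoxa5 and at Hoxb4 and Hoxb5, and the 5E1 points of Hoxb2 to Hoxb6 lie below the IgG points. TPM is a share of each library, so gaps between the groups can differ from the fitted fold changes. Hoxb4 averaged 58.5 TPM in 5E1 and 85.1 TPM in IgG, a wider gap than its fitted 1.30-fold fall.

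In 5E1 cells 4 of the 7 tested HoxB genes fell: Hoxb2, Hoxb4, Hoxb5 and Hoxb6 were 1.30-fold to 1.70-fold lower. None of the 7 HoxA genes passed edgeR's test in either direction, 1 (Hoxa5) had an unadjusted p under 0.05, and DESeq2 and limma-voom each called that 1. Of the TALE genes Pknox1 fell and Meis2 rose. This made 6 of the 24 members tested (25.0%), beside 23.2% of all 16198 genes tested, so the share of members that changed was near the background. Lower calls made up 20.8% of the members (5 of 24) and 11.1% of all genes, and higher calls 4.17% (1 of 24) and 12.1%. On the log2 scale the 24 had a median of 0.056, beside 0.00087 over all genes. That median was -0.088 with library size alone (-0.14 over all genes), -0.0032 without 5E1 replicate 1, 0.0040 without IgG replicate 1, 0.011 without IgG replicate 2 and 0.088 with the 5 CPM filter. Calls rest on edgeR's quasi-likelihood test with Benjamini-Hochberg adjustment over all genes.

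Hoxb5 had the largest fall of any member. This gene, whose product acts with that of Hoxa5 in lung branching, stood at 48.8, 41.3 and 33.2 CPM in the 5E1 libraries and at 66.9, 72.3 and 69.5 CPM in the IgG libraries. Every 5E1 library was below every IgG library. That is -0.76 on the log2 scale (SE 0.12), at an edgeR adjusted p of 0.00197. The call held under all 15 alternatives, with log2 fold changes of -0.90 to -0.63. In mm10 Hoxb5 lies on the plus strand of chromosome 11 (96303336 to 96306121), and 100 of its 2786 exonic bases overlap Hoxb5os on the opposite strand.

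Hoxb2, known for patterning of the hindbrain, stood at 20.1, 17.8 and 14.5 CPM in the 5E1 libraries, against 26.8, 27.7 and 27.2 CPM in the IgG libraries. The groups did not overlap, and the 3 IgG libraries lay within 1 CPM of each other. On the log2 scale this was -0.64 (SE 0.13, edgeR adjusted p 0.00514), and the call held under all 15 alternatives. Of its 3488 exonic bases 953 overlap Hoxb3os on the opposite strand. The strand setting of the counting is not stated, so reads there may have been left out as ambiguous or given to either gene. Hoxb2 lies on chromosome 11 (96350525 to 96354012).

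Hoxb4, known for its part in blood stem cell expansion, stood at 40.3, 39.7 and 32.0 CPM in the 5E1 libraries and at 47.3, 49.0 and 49.7 CPM in the IgG libraries. Hoxb6 stood at 19.0, 17.2 and 15.6 CPM in the 5E1 libraries and at 21.9, 22.2 and 23.2 CPM in the IgG libraries. For both genes the 5E1 libraries all lay below the IgG libraries, but the gap was smaller than that of Hoxb5. Each was at -0.38 on the log2 scale, Hoxb4 with an SE of 0.10 and an edgeR adjusted p of 0.0216, and Hoxb6 with 0.11 and 0.0350. Without any 1 of the IgG libraries, or without 5E1 replicate 3, both calls ended, at adjusted p of 0.0536 to 0.0732 for Hoxb4 and 0.0813 to 0.119 for Hoxb6. Neither gene overlaps an exon of another annotated gene. Hoxb4 lies at 96318267 to 96321638 and Hoxb6 at 96292476 to 96301569 on chromosome 11.

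Hoxb3, between Hoxb2 and Hoxb4 in the cluster, ran the same way without passing. It stood at 27.9, 22.8 and 19.5 CPM in the 5E1 libraries, against 28.0, 31.3 and 29.7 CPM in the IgG libraries. The groups were barely apart, with 5E1 replicate 1 next to IgG replicate 1. Its change of -0.35 on the log2 scale (SE 0.13) missed the threshold at an edgeR adjusted p of 0.0825 and passed without 5E1 replicate 1 (0.0176), with library size alone (0.0299) and with no low-count filter (0.0257). Of its 4251 exonic bases 2250 overlap Hoxb3os. At the 5′ end of the expressed stretch, Hoxb7 measured -0.33 (SE 0.22, adjusted p 0.323) and Hoxb8 0.11 (SE 0.20, adjusted p 0.735) on the log2 scale. Over the 7 tested HoxB genes the median on the log2 scale was -0.38, with 4 called lower, and 2 (Hoxb2 and Hoxb5) without 5E1 replicate 3 or any 1 of the IgG libraries.

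Hoxa5, the highest HoxA gene, stood at 72.1, 93.8 and 64.9 CPM in the 5E1 libraries and at 49.3, 48.0 and 66.1 CPM in the IgG libraries. The groups overlapped, since IgG replicate 3 was above 5E1 replicate 3. Its value of 0.50 on the log2 scale (SE 0.16) missed the threshold, at an edgeR adjusted p of 0.0596. Hoxa5 passed in 7 of 15 alternatives. These were limma-voom (0.0448), DESeq2 (0.0127), no robust estimation (0.0450), no low-count filter (3.00e-05), a filter at 5 CPM (0.0494), without 5E1 replicate 3 (0.0436) and without IgG replicate 3 (0.0217). Those in which it did not pass included library size alone (edgeR adjusted p 0.194) and the replicate block (0.112). Others were without 5E1 replicate 2 (log2 fold change 0.33, edgeR adjusted p 0.122) and without IgG replicate 1 (0.169) or 2 (0.173). The other HoxA genes had log2 fold changes of -0.077 (Hoxa4) to 0.26 (Hoxa2), with adjusted p of 0.229 to 0.829. Of the 7 HoxA values 6 were above 0, and 4 of 7 with library size alone, where Hoxa3 and Hoxa7 turned to -0.055 and -0.049. The median log2 fold change of the tested HoxA members was 0.22. It was 0.070 with library size alone, 0.13 with the 5 CPM filter, 0.13 without 5E1 replicate 2, 0.079 without IgG replicate 2 and 0.35 without IgG replicate 3. Hoxa2 was the only HoxA gene whose libraries did not overlap, at 13.2 ± 1.44 CPM in 5E1 and 10.9 ± 1.23 CPM in IgG (SD, n = 3 each). Over all genes 20.8% were higher in 5E1 without overlap and 21.4% lower without overlap, against 3 and 6 of the 24 members.

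**Figure D2:**
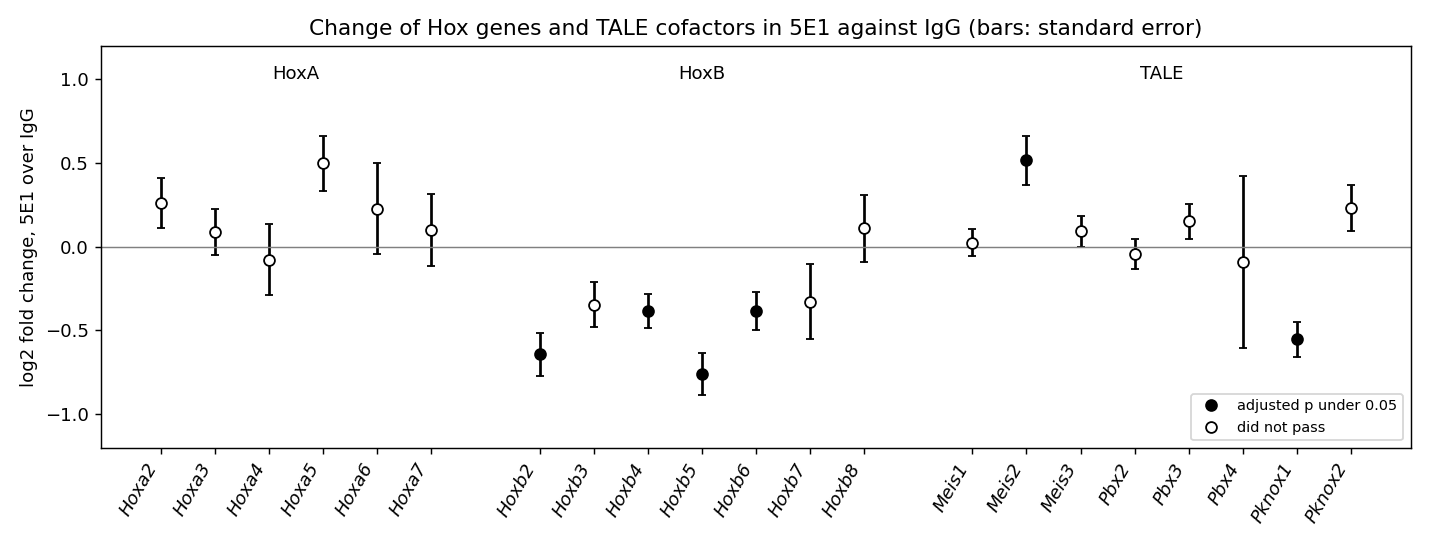
Log2 fold change of tested HoxA, HoxB and TALE genes, 5E1 over IgG, with the standard error as bars; filled points have an edgeR adjusted p under 0.05. Hoxb2 to Hoxb7 lie below 0 and the HoxA genes, Hoxa4 aside, above 0 (with library size alone Hoxa3 and Hoxa7 were below 0 as well).

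The balance between the clusters was shifted towards HoxA in 5E1, a ratio that does not depend on how libraries were scaled. HoxB supplied 49.5%, 41.8% and 44.1% of the summed Hox TPM in the 5E1 libraries and 60.9%, 63.0% and 55.7% in the IgG libraries. The groups did not overlap: by this per-length measure HoxB was the smaller part in every 5E1 library and the larger part in every IgG library. In reads with no length division, HoxB made up 56.5%, 49.7% and 51.1% of HoxA and HoxB reads in the 5E1 libraries and 67.0%, 69.8% and 62.8% in the IgG libraries. The groups did not overlap here either, but HoxB was then the larger part in all but 1 of the 5E1 libraries. Hoxb5 had 0.677, 0.441 and 0.511 reads per Hoxa5 read in the 5E1 libraries, against 1.36, 1.51 and 1.05 in the IgG libraries. The ratio of this pair was chosen after its values were seen. An exact two-sided permutation test gave p = 0.1, the smallest that 3 against 3 libraries allow. Hoxb2 per Hoxa2 ran the same way, at 1.33 ± 0.146 in 5E1 and 2.52 ± 0.309 in IgG, and so did Hoxb3 per Hoxa3, at 1.17 ± 0.143 in 5E1 and 1.62 ± 0.357 in IgG (SD, n = 3 each). For Hoxb4 per Hoxa4, Hoxb6 per Hoxa6 and Hoxb7 per Hoxa7 the groups overlapped. The difference between the clusters' fold changes was not tested.

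**Figure D3:**
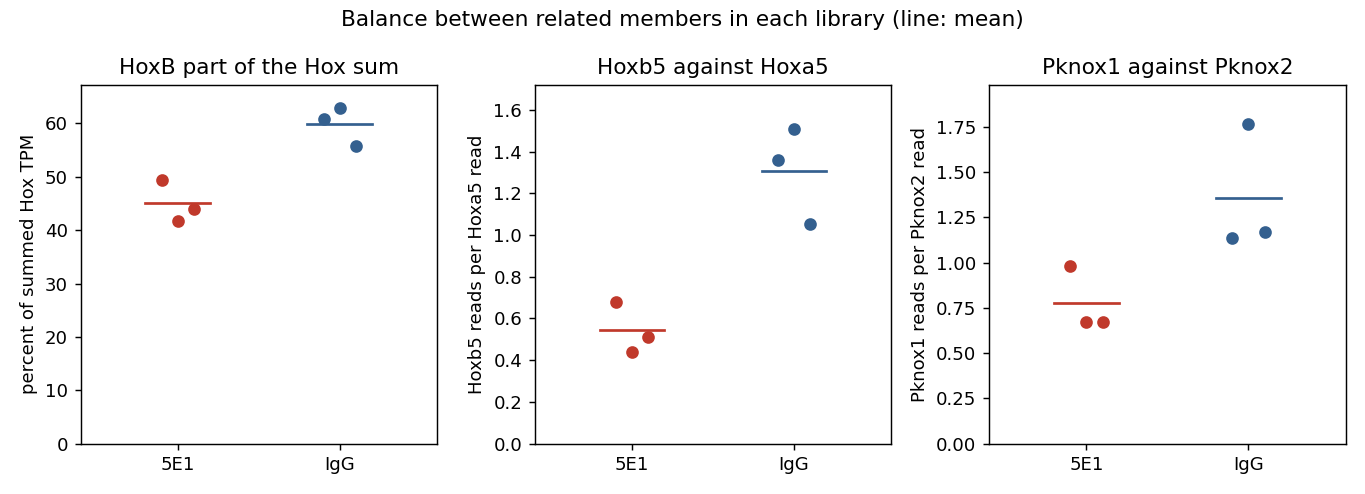
HoxB as a percentage of summed Hox TPM, Hoxb5 reads per Hoxa5 read, and Pknox1 reads per Pknox2 read, with 1 point per library (5E1 left, IgG right) and a line at the mean. In all 3 panels each 5E1 point lies below each IgG point.

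Upstream sequence was read from RefSeq promoters (GRCm38.p6), which held entries for 27 of the 48 members, 13 of them tested. The 250 bases before the start are shown for Hoxb4, the one called HoxB gene with an entry, for Hoxb8, a HoxB gene that was not called, and for Hoxa5, the highest HoxA gene. They lie at chr11:96318017-96318266 (plus strand), chr11:96281655-96281904 (plus strand) and chr6:52204588-52204837 (minus strand). Capitals mark TATAAA on either strand.
Hoxb4: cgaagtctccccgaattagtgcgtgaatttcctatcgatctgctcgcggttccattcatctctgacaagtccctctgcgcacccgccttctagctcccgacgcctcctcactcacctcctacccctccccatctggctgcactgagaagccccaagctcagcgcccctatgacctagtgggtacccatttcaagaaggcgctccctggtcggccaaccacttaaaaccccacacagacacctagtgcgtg
Hoxb8: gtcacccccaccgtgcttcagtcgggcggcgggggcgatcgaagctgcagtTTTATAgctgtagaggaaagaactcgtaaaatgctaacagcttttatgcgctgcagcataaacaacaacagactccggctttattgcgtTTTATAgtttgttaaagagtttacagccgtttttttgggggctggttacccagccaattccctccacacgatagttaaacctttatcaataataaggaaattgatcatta
Hoxa5: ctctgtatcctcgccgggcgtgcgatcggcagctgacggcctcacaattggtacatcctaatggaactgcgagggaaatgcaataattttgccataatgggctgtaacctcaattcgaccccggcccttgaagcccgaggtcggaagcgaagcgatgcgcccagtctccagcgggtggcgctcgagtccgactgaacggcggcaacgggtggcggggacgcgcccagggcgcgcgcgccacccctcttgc

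The motifs searched, on both strands, were 5, and in the windows shown no match overlapped one of another motif. TATAAA was found in 5 of 29 member promoters and in 12.4% of all 32851 promoters. The MEIS and PKNOX motif TGACAG was found in 2 of 29 and in 15.9% of all, and the Hox-PBX motif TGATTNAT in 2 of 29 and in 2.82% of all. The GLI motif GACCACCCA was in none of the 29 and in 0.225% of all promoters, and the retinoic acid direct repeat DR5 (AGGTCA repeated after 5 bases) in none and in 0.00913%. Hoxb4 and Hoxa5 held none of the 5 in these windows, and Hoxb8 held TTTATA, the reverse complement of TATAAA, at 199 and 110 bases before its start. Member promoters were richer in CpG, with a median ratio of observed to expected CpG of 0.687 against 0.373 for all promoters, and a median GC content of 59.2% against 52.4%.

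Among TALE genes, Pknox1 and Meis2 changed in opposite directions. Pknox1, also known as Prep1, encodes a widely expressed partner of PBX. It stood at 37.2, 31.3 and 30.6 CPM in the 5E1 libraries, against 44.6, 51.5 and 49.1 CPM in the IgG libraries. The groups did not overlap. Its change was -0.55 on the log2 scale (SE 0.10, edgeR adjusted p 0.00387), and the call held under all 15 alternatives. Pknox1 lies on chromosome 17 (31564734 to 31607693), and 155 of its 6933 exonic bases overlap a gene on the opposite strand. Its paralog Pknox2 measured 43.4 ± 4.73 CPM in 5E1 and 36.9 ± 6.73 CPM in IgG (SD, n = 3 each) and did not pass (log2 fold change 0.23, SE 0.14, adjusted p 0.254). Pknox1 reads per Pknox2 read came to 0.981, 0.671 and 0.672 in the 5E1 libraries and to 1.133, 1.76 and 1.17 in the IgG libraries.

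Meis2, which encodes a MEIS cofactor known from heart, limb and craniofacial development, stood at 26.0, 32.0 and 38.3 CPM in the 5E1 libraries and at 20.3, 21.9 and 25.2 CPM in the IgG libraries. The highest IgG library lay just below the lowest 5E1 library. On the log2 scale Meis2 was at 0.52 (SE 0.15, edgeR adjusted p 0.0272). The call ended with library size alone (0.0699), without 5E1 replicate 2 (0.0518) or 3 (0.116), and without IgG replicate 1 (0.103) or 2 (0.0885). Meis2 lies on chromosome 2 (115863064 to 116065839). Meis1 and Meis3, the more abundant MEIS genes, measured 0.024 (SE 0.080, adjusted p 0.861) and 0.092 (SE 0.093, adjusted p 0.517) on the log2 scale. Both turned negative with library size alone, at -0.12 and -0.051.

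On the log2 scale Pbx2 (-0.041, SE 0.090), Pbx3 (0.15, SE 0.11) and Pbx4 (-0.089, SE 0.51) did not pass, with edgeR adjusted p of 0.339 to 0.923.

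**Figure D4:**
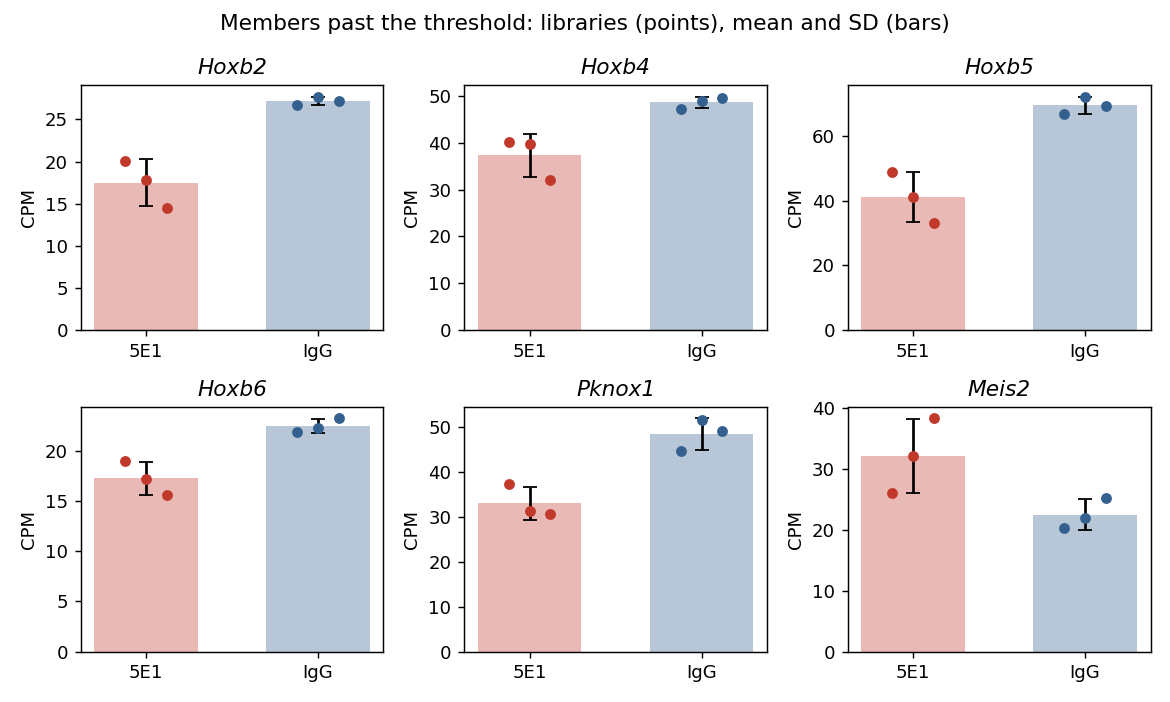
CPM of the 6 members past the threshold, with 1 point per library, bars at the mean and whiskers of 1 SD (5E1 left, IgG right, n = 3 each). Hoxb2, Hoxb4, Hoxb5, Hoxb6 and Pknox1 are lower in every 5E1 library, and Meis2 is higher in every 5E1 library.

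Of 9 listed noncoding genes of the clusters in the files 5 were tested. None passed by edgeR (beside 23.2% of all genes tested), DESeq2 or limma-voom, and 1 (Hotairm1) had an unadjusted p under 0.05. Hotairm1, an antisense RNA of the HoxA cluster, measured 5.11 ± 0.695 CPM in 5E1 and 3.27 ± 0.912 CPM in IgG (log2 fold change 0.63, SE 0.25, edgeR adjusted p 0.0922). Hoxaas2 (0.41) and Hoxaas3 (0.47) of the HoxA cluster also had positive log2 fold changes, with adjusted p of 0.251 and 0.295. Hoxb3os (-0.34) and Hoxb5os (-0.28) of the HoxB cluster had negative ones, with adjusted p of 0.189 and 0.612, and Hoxb5os turned to 0.12 without IgG replicate 1. Within each cluster these antisense genes had the sign of most of their coding neighbours. They overlap some of those neighbours, and the strand setting of the counting is not stated. Reads in the shared bases may have been left out as ambiguous or given to either gene. Whether the signs go together was not tested. Hottip, Hotair, Hoxa11os and Haglr had no read in any library.

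Polycomb proteins repress Hox genes through methylation of histone H3 and compaction. Of 30 Polycomb genes 4 rose (13.3%, beside 12.1% of all genes) and 5 fell (16.7%, beside 11.1%), so both shares were near the background. The list had a median of -0.059 on the log2 scale, which was -0.21 with library size alone, -0.019 without IgG replicate 3 and -0.012 with the 5 CPM filter. Cbx7, which encodes a chromobox subunit that binds the methylated histone, stood at 16.3, 24.9 and 22.1 CPM in the 5E1 libraries and at 9.10, 8.29 and 7.15 CPM in the IgG libraries (log2 fold change 1.37, SE 0.17, edgeR adjusted p 0.000456). Ezh2, the methyltransferase gene typical of dividing cells, averaged 22.2 ± 2.39 CPM in 5E1 and 38.4 ± 4.30 CPM in IgG (-0.79, SE 0.12, adjusted p 0.00105). Ezh1, its counterpart in resting cells, averaged 52.3 ± 4.72 CPM in 5E1 and 40.8 ± 0.161 CPM in IgG (0.36, adjusted p 0.0163), and Rbbp7, a histone-binding subunit, fell by 0.31 on the log2 scale (adjusted p 0.0172). Cycling-cell markers were lower in the same 5E1 libraries, and their part in the Ezh2 and Ezh1 values was not tested. The calls of Cbx7 and Ezh2 held under all alternatives. Those of Ezh1 and Rbbp7 ended without 5E1 replicate 3 or IgG replicate 1 or 2, at adjusted p of 0.0529 to 0.0673, and that of Ezh1 also without IgG replicate 3 (0.0559) and with library size alone (0.127). Without 5E1 replicate 3 or IgG replicate 1 or 2, 1 Polycomb gene rose and 1 fell, without IgG replicate 3 these were 1 and 2, and with library size alone 1 and 9.

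Trithorax complexes and their partners keep Hox genes on. The list of Trithorax and Hox activator genes also held Ctcf, which is not a Trithorax gene. Of its 17 genes tested 7 fell (41.2%, beside 11.1% of all genes) and 1 rose (5.88%, beside 12.1%). Ctcf was 1 of the 7 (log2 fold change -0.27, edgeR adjusted p 0.0292). The list had a median of -0.26 on the log2 scale, or -0.40 with library size alone. Ash2l, a core subunit of the histone H3 lysine methyltransferase complexes, averaged 38.4 ± 3.11 CPM in 5E1 and 55.4 ± 2.85 CPM in IgG (log2 fold change -0.53, SE 0.091, edgeR adjusted p 0.00244). Mllt1 (-0.52), a gene of transcription elongation, and Psip1 (-0.35), whose product tethers the methyltransferase KMT2A to chromatin, also fell. Aff1, another elongation gene, rose by 0.54 on the log2 scale (SE 0.085, adjusted p 0.00148). The calls of Ash2l, Mllt1, Psip1 and Aff1 held under all alternatives, and that of Ctcf in 11 of 15. Kmt2a itself was at 0.098 (adjusted p 0.608), and the Cdx genes, which activate Hox genes in the embryo, had no read. The 7 that fell became 4 without 5E1 replicate 3, IgG replicate 1 or IgG replicate 3.

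Retinoic acid, which induces 3′ Hox genes in the embryo, has its own enzymes and receptors, and of 16 tested 5 rose (31.3%, beside 12.1% of all genes) and 3 fell (18.8%, beside 11.1%). The median of the list was 0.19 on the log2 scale. It was 0.055 without 5E1 replicate 3, 0.070 without 5E1 replicate 1, 0.074 without IgG replicate 2, 0.046 with library size alone, 0.030 with no low-count filter and 0.30 with the 5 CPM filter. Cyp26b1, which encodes an enzyme that degrades retinoic acid, stood at 30.4, 48.1 and 44.6 CPM in the 5E1 libraries and at 5.62, 4.37 and 4.61 CPM in the IgG libraries. This was 8.39-fold higher (log2 fold change 3.07, SE 0.19, edgeR adjusted p 1.38e-05). Aldh1a1, a retinoic acid synthesis gene, averaged 99.5 ± 25.5 CPM in 5E1 and 29.5 ± 6.04 CPM in IgG (1.75, adjusted p 0.00232), and Dhrs3, whose product turns retinaldehyde back to retinol, rose by 0.85 (adjusted p 0.00279). Rdh10, which makes retinaldehyde, averaged 43.4 ± 0.678 CPM in 5E1 and 63.45 ± 5.30 CPM in IgG (-0.55, SE 0.087, adjusted p 0.00154). So the genes that changed included both producers and degraders of the ligand. The calls of these 4 held under all alternatives. Rarb, a retinoic acid receptor gene, fell by 0.59 on the log2 scale (edgeR adjusted p 0.0492, chosen after its value was seen). That call ended in 9 alternatives with adjusted p of 0.0503 to 0.163. Without 5E1 replicate 3, 3 rose and 1 fell. Without IgG replicate 2, 3 rose and 3 fell, and without IgG replicate 1 or 3, 1 fell. With library size alone 4 rose and 6 fell.

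**Figure D5:**
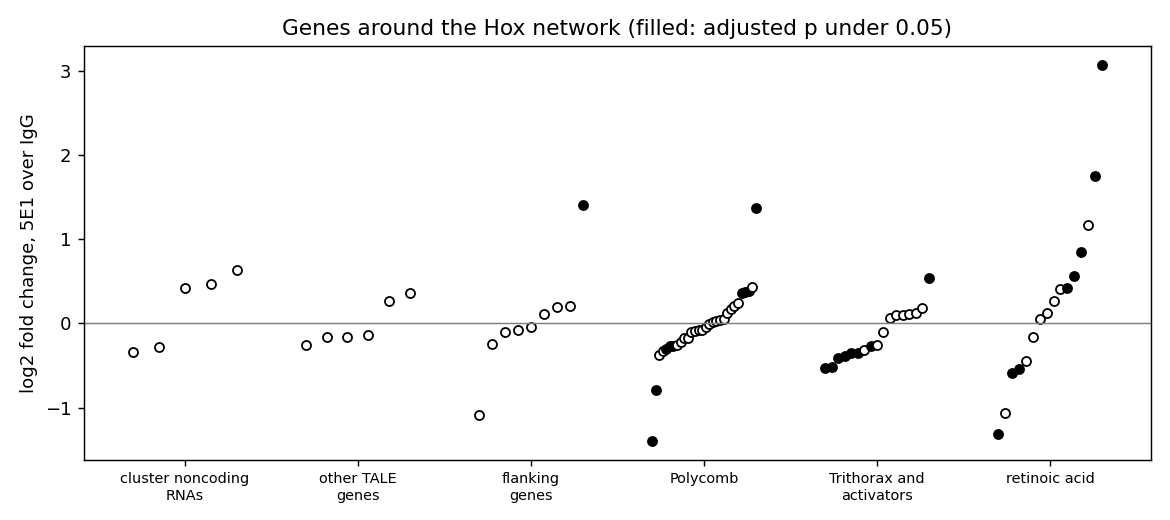
Log2 fold change, 5E1 over IgG, of each tested gene on 6 lists around the Hox network, sorted within each list; filled points have an edgeR adjusted p under 0.05. The retinoic acid list holds the point farthest from 0, Cyp26b1 at 3.07.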

How the data were processed

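RNA from sorted EGFP-positive lung cells was sequenced from stranded poly(A) libraries, per the labels' protocols. Each library has its own file of read counts by gene symbol, deposited raw by the authors. The submitters' processing notes name HTSeq 0.6.0, R 3.5.1, bedtools 2.17.0, DESeq2 1.10.0, STAR 2.5.0c, Picard 1.126 and mm10, without their roles. The sources used here state neither the annotation, nor the strand setting, nor how duplicates were handled. Summary lines of HTSeq were kept out of library sizes and tests. They hold unaligned (20.4% to 42.9%), multiply aligned (5.27% to 6.26%), ambiguous (1.94% to 2.66%) and unassigned reads (4.60% to 7.15%).

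Groups came from the titles. Genes passing filterByExpr (minimum count 10, minimum total 15) were fitted in R 4.3.3 with edgeR 4.0.16 (TMM, robust glmQLFit, glmQLFTest, group only, two-sided), and an adjusted p under 0.05 was called. CPM uses TMM-scaled library sizes. TPM uses GENCODE M21 exon unions (GRCm38), matching 46394 symbols and all 48 members, with no TMM scaling, so TPM compares genes within a library. Replicate pairs differed beyond sampling noise (chi-square over degrees of freedom 14.8 to 50.5). On simulated data for the same comparison (16198 genes, 200 of them changed) the edgeR test recovered 85.0% of changes of 1 and 96.0% of changes of 2 on the log2 scale. It called 192 genes, 11 of them falsely. Changes under 1 were not simulated, and those of all tested members were under 1, the largest being -0.76 (Hoxb5).

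Alternatives were limma-voom (limma 3.58.1), DESeq2 1.42.0, library size alone, RLE factors, no robust estimation, no low-count filter, a filter of 5 CPM in at least 3 libraries, the replicate block, each library left out and, added after seeing the data, a covariate for the absence of Y-linked reads. Members past the threshold or averaging at least 1 CPM were named, with the up to 4 called genes of smallest p of each other list and Ptch1, Hhip and Gli1. Other genes named (the noncoding genes, Kmt2a, Ctcf, the Cdx genes, Rarb, Skap2, Hibadh, Tgif1) were chosen after their values were seen. Members and lists were chosen with earlier results of these data known. Some genes are not reported here by name.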

Additional observations from a re-analysis of the deposited data

How the results depend on the processing

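Hoxb2, Hoxb5 and Pknox1 were called lower in every alternative. Members called higher numbered 1 in the reported fit, 0 with library size alone, 3 with limma-voom, DESeq2, the 5 CPM filter or no low-count filter, 2 with no robust estimation, and 0 to 2 with 1 library left out. Members called lower numbered 5, and 3 to 6 with 1 library left out. Over all genes 1966 were higher and 1791 lower, with 1221 to 1885 higher and 1073 to 1819 lower when 1 library was left out, and 1312 higher and 3274 lower with library size alone. That scaling put the median over all genes at -0.14 on the log2 scale, the share of higher among all calls at 28.6% in place of 52.3%, and the HoxB median at -0.52. It also turned Hoxa3 (-0.055), Hoxa7 (-0.049), Hoxb8 (-0.030), Meis1 (-0.12) and Meis3 (-0.051). With 1 library left out, the log2 fold change ran from -0.036 to 0.15 for Hoxa3, -0.23 to 0.084 for Hoxa4, -0.027 to 0.29 for Hoxa7, -0.0068 to 0.070 for Meis1, -0.12 to 0.0032 for Pbx2 and -0.50 to 0.12 for Hoxb5os. The HoxA summed TPM in IgG became 189.3 with longest transcripts and 105.5 with no length division (CPM), and the HoxB summed TPM in IgG became 269.6 and 208.5. Same-numbered libraries did not deviate together (correlations -0.144, -0.00758 and -0.0708), and none correlated best with its own number. With the replicate block 1 member was higher and 4 lower, Hoxb6 reaching an adjusted p of 0.0634, and 3 Polycomb genes fell in place of 5. The covariate for absent Y-linked reads gave 1 higher and 5 lower. The causes were not tested. Depth limits the 24 untested members, where a count of 0 allows 0.0874 to 0.177 CPM in a library.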

Other observations

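Genes listed as flanking the Hox clusters, and TALE genes outside the Meis, Pbx and Pknox families, were mostly not called. So were most of all genes tested, of which 23.2% were called. Of 9 flanking genes tested 1 rose (11.1%, beside 12.1% of all genes) and none fell (beside 11.1%). The 1 that rose, Nckap1l, averaged 7.88 ± 2.25 CPM in 5E1 and 3.004 ± 0.360 CPM in IgG (SD, n = 3 each, log2 fold change 1.40, SE 0.24, edgeR adjusted p 0.00249). Nckap1l is known as a gene of blood cells, and the leukocyte markers were higher in the same libraries; their part in it was not tested. Skap2 and Hibadh, which lie on either side of HoxA, measured 0.11 and 0.19 on the log2 scale, with adjusted p of 0.426 and 0.0963. None of the 6 other TALE genes tested passed by edgeR, by DESeq2 or by limma-voom, none had an unadjusted p under 0.05, and library size alone called 1 lower. Tgif1, a repressor gene of TGF-beta signalling, averaged 45.7 ± 2.15 CPM in 5E1 and 51.3 ± 2.94 CPM in IgG (adjusted p 0.186).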
